A study of Homo sapiens with 6 samples.

Results

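The 33 genes described here are the transcription factors of the NF-kB family, their inhibitors and regulators, and a set of chemokines, cytokines and other products that NF-kB is known to switch on. They were given as a list of symbols, and all 33 were found by Ensembl identifier among the 61806 genes of the count table. Of these, 18 are pathway components or products kept in or on the cell, and 15 are secreted products or ligands. Bulk RNA sequencing of poly(A) transcripts was done in NB4, an established human acute promyelocytic leukaemia line arrested at the stage of granulocyte precursors. The 3 overexpressing libraries came from NB4 cells made to express CD69 stably with a lentivirus, and the 3 control libraries from matched NB4 cells with the vector, whose genotype is labelled wild type. CD69 is a C-type lectin that appears on leukocytes soon after activation. Neither group received a drug, both were collected while growing in log phase, and every library carries the same batch label. The libraries are called biological replicates. Whether each came from its own transduction is not given in the sources used here, so each p-value covers only the spread among these 6 libraries, and each group may stand for 1 transduced population.

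NF-kB is a family of dimeric transcription factors that waits in the cytoplasm, bound to IkB proteins or held as long precursors. Receptors for TNF, interleukin-1 and microbial products activate the IKK kinases, which lead to the destruction of IkB, and the freed dimers enter the nucleus and bind kB sites. In a slower branch, the kinase NIK leads to processing of the NFKB2 precursor, which then pairs with RELB. Among the targets are the pathway's own inhibitors, which close the loop, and the chemokines and cytokines by which myeloid cells call other leukocytes. Bulk RNA measures transcripts and not the nuclear entry of the factors, and fewer cells expressing a gene cannot be told apart from less RNA per cell.

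Promoter windows from RefSeq (GRCh38.p14), 250 bases before to 50 bases after each annotated start, were matched to 26 of the 33 members, and 5 are shown because they belong to members that behaved differently in these libraries. CXCL1 and CXCL2 encode neutrophil-attracting chemokines, and their starts are alike. They were chosen because CXCL1, but not CXCL2, was far lower in overexpressing replicates 2 and 3 than in replicate 1. CXCL8 and TNF were chosen because they rose, and NFKB2 because it fell. Capitals mark matches on either strand to the 10-letter kB consensus or to GGNNNTTCC. The 2 motifs overlap each other at several places, and palindromic matches count on both strands. The windows are chr4:73869143-73869442, plus strand (CXCL1), chr4:74099146-74099445, minus strand (CXCL2), chr4:73740319-73740618, plus strand (CXCL8), chr6:31575315-31575614, plus strand (TNF) and chr10:102394328-102394627, plus strand (the second of 3 NFKB2 starts), each printed 5′ to 3′ along the gene.
CXCL1: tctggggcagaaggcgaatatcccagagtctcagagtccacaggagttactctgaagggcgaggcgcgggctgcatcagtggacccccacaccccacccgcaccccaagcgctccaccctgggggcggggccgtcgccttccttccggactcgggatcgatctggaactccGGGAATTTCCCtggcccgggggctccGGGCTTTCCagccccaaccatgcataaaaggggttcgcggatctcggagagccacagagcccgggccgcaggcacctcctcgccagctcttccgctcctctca
CXCL2: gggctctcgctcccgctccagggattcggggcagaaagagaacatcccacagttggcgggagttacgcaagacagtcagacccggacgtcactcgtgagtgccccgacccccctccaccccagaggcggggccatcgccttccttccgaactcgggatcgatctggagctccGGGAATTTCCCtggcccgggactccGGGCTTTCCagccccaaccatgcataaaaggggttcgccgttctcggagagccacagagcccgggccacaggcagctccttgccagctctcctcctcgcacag
CXCL8: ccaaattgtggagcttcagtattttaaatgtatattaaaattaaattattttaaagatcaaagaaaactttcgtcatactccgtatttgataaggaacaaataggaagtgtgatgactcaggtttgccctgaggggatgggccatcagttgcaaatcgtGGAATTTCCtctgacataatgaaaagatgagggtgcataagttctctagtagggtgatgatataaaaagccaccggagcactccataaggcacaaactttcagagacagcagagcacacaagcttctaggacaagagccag
TNF: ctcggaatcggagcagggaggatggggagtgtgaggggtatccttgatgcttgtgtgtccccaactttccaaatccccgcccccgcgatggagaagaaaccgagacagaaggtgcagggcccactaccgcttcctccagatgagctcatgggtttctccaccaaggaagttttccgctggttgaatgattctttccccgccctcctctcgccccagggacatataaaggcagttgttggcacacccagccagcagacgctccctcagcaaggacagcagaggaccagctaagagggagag
NFKB2: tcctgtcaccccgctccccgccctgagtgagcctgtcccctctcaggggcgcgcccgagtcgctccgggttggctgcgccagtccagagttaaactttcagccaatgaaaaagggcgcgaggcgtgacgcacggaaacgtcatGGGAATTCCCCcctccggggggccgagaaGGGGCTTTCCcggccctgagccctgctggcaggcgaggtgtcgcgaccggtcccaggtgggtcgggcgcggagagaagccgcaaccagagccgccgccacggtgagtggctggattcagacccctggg
The kB consensus GGGAATTTCC starts 79 bases before the CXCL1 start and 78 bases before the CXCL2 start. From the second match, 53 bases before the start, to 50 bases after it, 89 of 103 bases (86.4%) are identical between CXCL1 and CXCL2. CXCL8 holds no kB consensus in this window and has GGAATTTCC 91 bases before its start. NFKB2 holds 4 kB consensus matches counted on both strands. The TNF window holds no match to either motif, which says nothing of sites farther away or of kB sites in this window with other letters. A kB consensus was found in 16 of the 39 windows of the members (41.0%), beside 11.3% of all 35116 RefSeq windows, and GGNNNTTCC in 21 of the 39 (53.8%), beside 20.1% of all windows. Counted by gene, 14 of the 26 members hold the consensus in at least 1 window, and some windows of 1 gene overlap. By call, the consensus was present in 0 of 6 members that rose, 1 of 1 that fell and 13 of 19 that did not pass the test. Either motif was present in 2 of 6, 1 of 1 and 15 of 19. The 7 members without a window include CCL5 and CXCL16, which rose, and RELB, IER3 and CCL2, which fell. The difference between these groups was not tested. A match is a string of letters, and binding was not measured.

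Total counts lay between 51543550 and 57463020 per library, and 19485 genes passed the filter on low counts. Levels are given as CPM, the usual count scaled to library size. CD69 itself held 98.2, 99.1 and 95.7 CPM in the overexpressing libraries, against 80.3, 81.9 and 70.6 CPM in the controls, a 1.26-fold difference (log2 fold change 0.33, SE 0.07, adjusted p = 0.0153). Whether the transgene carries the sequence counted for CD69 is not stated, so this value may or may not include its transcript. How far CD69 was overexpressed in these libraries is therefore not known from these counts. Of 9 promyelocyte markers, CTSG, PRTN3, ELANE, AZU1, RNASE2 and RNASE3 were above 91 CPM in every library, while MPO lay at 0.518 to 1.03 CPM in the overexpressing libraries and 0.928 to 1.45 CPM in the controls. Overexpressing replicate 1 stood apart, with a score of 32.4 on the first principal component, against 74.8 and 74.3 for overexpressing replicates 2 and 3 and -61.7 to -59.5 for the controls. Summed over its list, the promyelocyte set (5 of 9 higher, 0 lower) was at 2401 to 2830 CPM in the overexpressing libraries and 1301 to 1619 CPM in the controls, and the monocyte and macrophage set (3 higher and 2 lower of 8 tested) at 477 to 496 CPM in the overexpressing libraries and 452 to 467 CPM in the controls. The T and NK cell set (1 higher and 2 lower of 5 tested) was at 114 to 133 CPM in the overexpressing libraries and 104 to 120 CPM in the controls, nearly all of it NKG7 and NCAM1, with CD3E and CD3G at 0 in all 6 libraries. LYZ was the highest of the monocyte and macrophage set, at a mean of 313 CPM in the overexpressing libraries and 285 CPM in the controls. The part of these markers in the results below was not tested. Results that rest on overexpressing replicate 1, or on the other two, are given with and without it.

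Chemokines and cytokines such as CCL5, TNF and IL1B rose, while the subunits NFKB2 and RELB fell. Among the 15 secreted products, 6 rose and 1 fell, and among the 18 components 2 rose and 3 fell, so that 8 of 33 members rose, 4 fell and 21 missed the threshold, an adjusted p under 0.05 by the quasi-likelihood test of edgeR over all genes. Over all genes tested, 14.2% rose and 9.94% fell, together 24.1%, beside 12 of 33 members. The median log2 fold change was 0.22 for the secreted products, -0.12 for the components and 0.01 for all genes. The difference between the 2 kinds of member was not tested. Of the 8 members that rose, 7 rose at least 2-fold, a size reached by 5.37% of all genes, and none of the 4 that fell did so. Overexpressing and control libraries did not overlap for 17 members, 10 higher and 7 lower, beside 42.3% of all genes. Without overexpressing replicate 1, 9 members rose and 4 fell, but these were not all the same genes. The lower calls were then 1 component and 3 secreted products. NFKB2 and RELB lost their call, CXCL1 and IL6 were called lower, and LTA was called higher. With overexpressing replicate 1 alone against the controls, a fit in which the lone library is assumed to vary like the controls, IRAK2, CCL5, TNF and IL1B rose and no other member was called. Those 4 kept their call under all 17 alternatives.

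**Figure D1:**
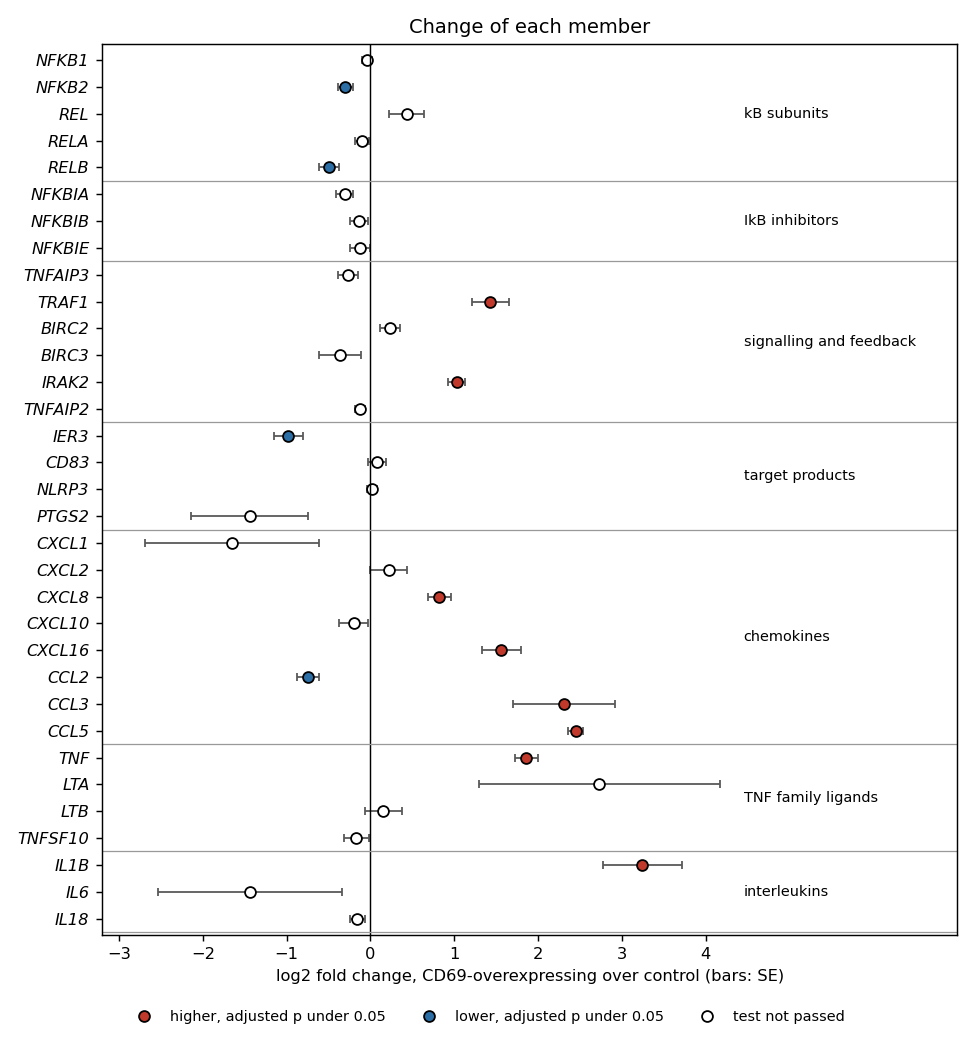
Change of each of the 33 members, as log2 fold change of the overexpressing over the control libraries (x axis; bars show the SE) by role (y axis). Filled points passed the test: IL1B stands farthest right among them at 3.24 and IER3 farthest left at -0.98.

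Of the 5 subunits of NF-kB, NFKB2 and RELB fell, and NFKB1, RELA and REL did not pass the test. Per kilobase of exon, so that genes can be compared, NFKB2 was the most abundant at 17.3 CPM per kilobase in the overexpressing libraries and 21.4 in the controls. NFKB1 followed at 12.4 and 12.7, RELA at 9.499 and 10.2, RELB at 5.02 and 7.09, and REL was lowest at 4.01 and 2.99 CPM per kilobase in overexpressing and control libraries. The order was the same in both groups.

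NFKB2 (ENSG00000077150; chr10:102394110-102402529, plus strand) encodes the precursor p100, which is cut to the active p52. It held 80.8, 75.97 and 76.6 CPM in the overexpressing libraries, against 88.1, 91.7 and 108 CPM in the controls, and the groups did not overlap (log2 fold change -0.30, SE 0.09, adjusted p = 0.0416). That call is close to the threshold and was lost under 8 of 17 alternatives, among them the omission of any 1 overexpressing library or of control replicate 1 or 2 (adjusted p between 0.0515 and 0.147). RELB (ENSG00000104856; chr19:45001430-45038198, plus strand) encodes the partner that p52 binds. Its level was 14.2, 14.8 and 16.8 CPM in the overexpressing libraries, against 20.3, 20.1 and 24.1 CPM in the controls (log2 fold change -0.50, SE 0.12, adjusted p = 0.0175). All overexpressing libraries lay below all controls, and the call was lost without overexpressing replicate 1 (adjusted p = 0.0579) or replicate 2 (adjusted p = 0.0758), with replicate 1 alone (adjusted p = 0.135) and against a fold of 1.2 (adjusted p = 0.0818).

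NFKB1 and RELA, the pair of the classical dimer, did not pass the test, with log2 fold changes of -0.04 (SE 0.06) and -0.10 (SE 0.08). NFKB1 lay at 76.7 to 78.6 CPM in the overexpressing libraries and 77.7 to 82.1 CPM in the controls, so that the groups overlapped. REL, the subunit most tied to lymphoid and activated myeloid cells, held 60.3, 50.9 and 47.5 CPM in the overexpressing libraries, against 44.9, 46.9 and 26.4 CPM in the controls (log2 fold change 0.43, SE 0.21, adjusted p = 0.188). The groups did not overlap, and replicate 3 stood lowest in each group. REL shares 41.9% of its 150-base transcript windows with other annotated genes, so part of its counts is uncertain.

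Transcripts of the IkB proteins, which hold NF-kB in the cytoplasm, did not pass the test in any of 3 cases, and all 3 estimates were below 0. Of the 3, 1 had an unadjusted p under 0.05, DESeq2 called 1 and limma-voom called 0. NFKBIA encodes the IkB that is remade first after NF-kB activation. It held 36.95, 36.5 and 40.9 CPM in the overexpressing libraries, against 41.8, 49.01 and 51.05 CPM in the controls, and every overexpressing library lay below every control (log2 fold change -0.31, SE 0.10, adjusted p = 0.0517). The value sits beside the threshold, and 7 of 17 alternatives called it lower, with adjusted p between 0.0161 and 0.397 over all of them. NFKBIB (log2 fold change -0.14, SE 0.11, adjusted p = 0.419) and NFKBIE (log2 fold change -0.12, SE 0.12, adjusted p = 0.524) had overlapping groups. NFKBIE was the most abundant of the 3 per kilobase, at 25.6 in the overexpressing libraries and 27.8 CPM per kilobase in the controls.

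Of the 6 signalling and feedback components, the adaptor TRAF1 and the kinase IRAK2 rose and the other 4 did not pass the test. IRAK2 (ENSG00000134070; chr3:10164865-10243743, plus strand) carries signals from Toll-like and interleukin-1 receptors. Its level was 26.9, 28.2 and 24.8 CPM in the overexpressing libraries, against 14.1, 12.2 and 12.8 CPM in the controls, a 2.04-fold difference (log2 fold change 1.03, SE 0.10, adjusted p = 3.5e-04). All 3 overexpressing libraries were near each other and above all controls. TRAF1 (ENSG00000056558; chr9:120902393-120929173, minus strand) is an adaptor of TNF receptors whose gene is itself an NF-kB target. It held 2.62, 3.03 and 3.62 CPM in the overexpressing libraries, against 1.196, 1.02 and 1.23 CPM in the controls (log2 fold change 1.43, SE 0.22, adjusted p = 0.00327), a low level at which few fragments stand behind each value. The TRAF1 call was lost with overexpressing replicate 1 alone (adjusted p = 0.0933).

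The ubiquitin-editing enzyme TNFAIP3, also called A20, which shuts the pathway off, lay at 40.8 to 48.9 CPM in the overexpressing libraries and 44.8 to 59.5 CPM in the controls (log2 fold change -0.27, SE 0.12, adjusted p = 0.151). Without control replicate 3 it was called lower (adjusted p = 0.0215). BIRC2 and BIRC3, ubiquitin ligases that act at TNF receptors, had log2 fold changes of 0.23 (SE 0.12) and -0.36 (SE 0.25). BIRC3 spread widely, with 8.23, 11.8 and 10.9 CPM in the overexpressing libraries and 14.6, 16.5 and 8.76 CPM in the controls. TNFAIP2, a TNF-induced gene, was the most abundant component in CPM, at 100.5 ± 4.76 CPM in the overexpressing libraries and 109.5 ± 1.74 CPM in the controls (SD, n = 3 each; log2 fold change -0.12, SE 0.06, adjusted p = 0.194). Its groups did not overlap, and the size of the difference was small.

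Among the 4 target products kept in or on the cell, IER3 fell and the other three did not pass the test. IER3 (ENSG00000137331; chr6:30743199-30744554, minus strand) is an early-response gene that modulates cell survival. It held 13.8, 8.39 and 10.9 CPM in the overexpressing libraries, against 20.7, 22.9 and 21.8 CPM in the controls (log2 fold change -0.98, SE 0.17, adjusted p = 0.00583). All overexpressing libraries lay below all controls, with replicate 1 the highest of them, and 26.5% of its exonic bases lie under IER3-AS1 on the opposite strand. With overexpressing replicate 1 alone the IER3 call was lost (adjusted p = 0.0764). CD83, a surface marker of mature dendritic cells, and NLRP3, the sensor of the inflammasome, differed by 0.08 (SE 0.11) and 0.02 (SE 0.06) on the log2 scale, with overlapping groups. PTGS2, the inducible cyclooxygenase, held 0.535, 0.674 and 1.06 CPM in the overexpressing libraries, against 4.48, 0.758 and 0.9101 CPM in the controls, where replicate 1 alone was high (log2 fold change -1.44, SE 0.70, adjusted p = 0.181). Without control replicate 1, its log2 fold change was -0.15.

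**Figure D2:**
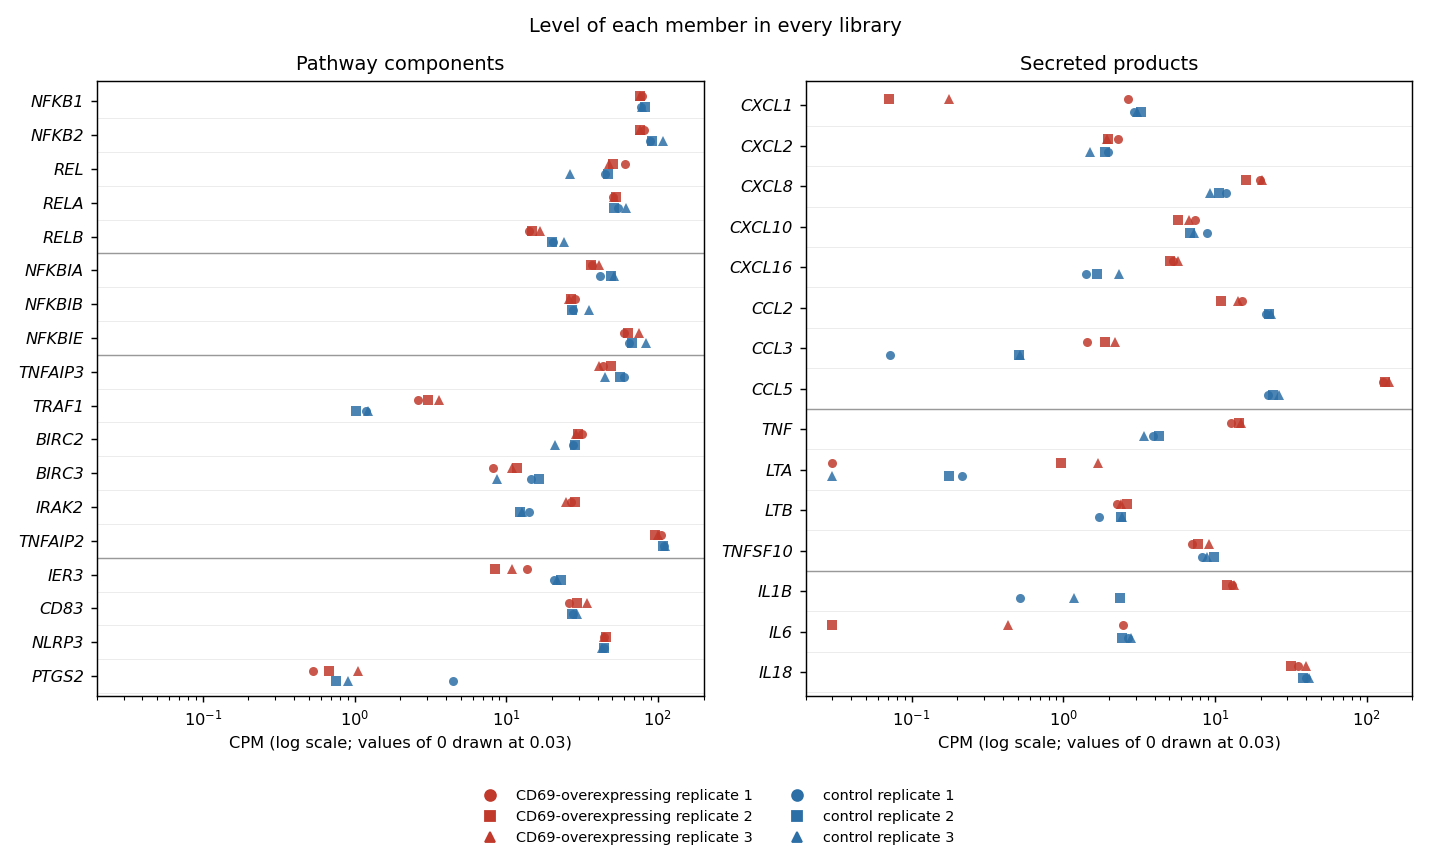
CPM of each member (x axis, log scale) in each of the 6 libraries, with components in the left panel, secreted products in the right panel, values of 0 at the left edge and roles set apart by grey lines. CCL5, TNF and IL1B show separate groups, while CXCL1, LTA and IL6 show overexpressing replicate 1 apart from replicates 2 and 3.

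Of the 8 chemokines, 4 rose and 1 fell, and the other 3 missed the threshold. CCL5, CXCL8, CXCL16 and CCL3 rose, and CCL2, the monocyte attractant, fell. The chemokine CCL5 (ENSG00000271503; chr17:35871491-35880793, minus strand), also called RANTES, attracts T cells and monocytes. It held 128, 131 and 139 CPM in the overexpressing libraries, against 22.2, 24.1 and 26.6 CPM in the controls, a 5.48-fold difference (log2 fold change 2.45, SE 0.09, adjusted p = 4.0e-06). This was the smallest adjusted p among the members, and the 3 overexpressing libraries lay close together. Per kilobase, CCL5 was the most abundant of the 33 members in the overexpressing libraries, at 87.9 CPM per kilobase, against 16.04 in the controls.

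CXCL8 (ENSG00000169429; chr4:73740506-73743716, plus strand) encodes interleukin-8, the main attractant of neutrophils in humans. Its level was 19.8, 16.1 and 20.3 CPM in the overexpressing libraries, against 11.8, 10.7 and 9.297 CPM in the controls, a 1.76-fold difference (log2 fold change 0.82, SE 0.14, adjusted p = 0.00465). CXCL16 (ENSG00000161921; chr17:4733526-4739922, minus strand) is made as a membrane protein and shed. It held 5.26, 5.05 and 5.72 CPM in the overexpressing libraries, against 1.41, 1.68 and 2.34 CPM in the controls (log2 fold change 1.56, SE 0.23, adjusted p = 0.00241). For both genes every overexpressing library lay above every control, and both calls were lost with overexpressing replicate 1 alone (adjusted p = 0.0548 for CXCL8 and 0.0563 for CXCL16).

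CCL3 (ENSG00000277632; chr17:36088256-36090169, minus strand), a macrophage inflammatory chemokine, was scarce, with 80, 106 and 111 counts in the overexpressing libraries and 4, 29 and 29 counts in the controls. In CPM these were 1.43, 1.88 and 2.17 in the overexpressing libraries and 0.0714, 0.511 and 0.517 in the controls (log2 fold change 2.31, SE 0.61, adjusted p = 0.0288). The groups did not overlap, but 74.6% of its exonic bases lie under AC243829.4 on the opposite strand, and whether the counting used strand was not stated. The near copy CCL3L3 held 27, 32 and 60 counts in the overexpressing libraries and 3, 12 and 29 in the controls. CCL3 shared 0% of its 150-base transcript windows with other annotated genes. How reads were split between these near copies was not tested. The CCL3 call was lost without overexpressing replicate 2 (adjusted p = 0.0800) or replicate 3 (0.0834), with overexpressing replicate 1 alone (0.279), without control replicate 2 (0.0626) and with no filter on low counts (0.0701).

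CCL2 (ENSG00000108691; chr17:34255218-34257203, plus strand), also called MCP-1, held 15.1, 10.96 and 14.2 CPM in the overexpressing libraries, against 21.6, 22.8 and 23.2 CPM in the controls (log2 fold change -0.75, SE 0.13, adjusted p = 0.00553). All overexpressing libraries lay below all controls, opposite in direction to CCL5 and CCL3 on the same chromosome. The call was lost with overexpressing replicate 1 alone (adjusted p = 0.0962). CXCL10, an interferon-linked chemokine, and CXCL2 did not pass the test, at -0.20 (SE 0.17) and 0.22 (SE 0.22) on the log2 scale, and their groups overlapped.

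TNF rose while its neighbours did not pass the test. LTA, TNF and LTB lie within a few kilobases of each other on chromosome 6, with 1243 bases between LTA and TNF and 2189 between TNF and LTB. TNF (ENSG00000232810; chr6:31575567-31578336, plus strand), the founding ligand of the family and itself an activator of NF-kB, held 12.7, 14.4 and 14.9 CPM in the overexpressing libraries, against 3.89, 4.25 and 3.41 CPM in the controls, a 3.63-fold difference (log2 fold change 1.86, SE 0.14, adjusted p = 1.4e-04). All 3 overexpressing libraries were above all controls. LTB, the membrane partner of lymphotoxin, lay at 2.27 to 2.61 CPM in the overexpressing libraries and 1.71 to 2.44 CPM in the controls (log2 fold change 0.15, SE 0.22, adjusted p = 0.674). TNFSF10, the death ligand TRAIL, lay at 7.05 to 9.11 CPM in the overexpressing libraries and 8.21 to 9.82 CPM in the controls (log2 fold change -0.17, SE 0.15, adjusted p = 0.452).

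IL1B (ENSG00000125538; chr2:112829751-112836903, minus strand), the inflammatory cytokine that the inflammasome activates by cleavage, rose the most among called members. It held 13.01, 12.03 and 13.3 CPM in the overexpressing libraries, against 0.518, 2.35 and 1.18 CPM in the controls, a 9.46-fold difference (log2 fold change 3.24, SE 0.47, adjusted p = 0.0022). The overexpressing libraries were alike, and the controls were low and spread widely. The log2 fold change lay between 2.85 and 3.89 over the 17 alternatives. IL18, the other substrate of the inflammasome, was abundant and did not pass the test, at 35.2, 31.8 and 39.5 CPM in the overexpressing libraries and 39.5, 38.2 and 41.6 CPM in the controls (log2 fold change -0.16, SE 0.09, adjusted p = 0.258).

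CXCL1, IL6 and LTA did not pass the test over all libraries, and in each the overexpressing libraries were unlike one another. CXCL1 (ENSG00000163739; chr4:73869393-73871242, plus strand) held 2.66, 0.0709 and 0.176 CPM in overexpressing replicates 1, 2 and 3, against 2.91, 3.23 and 3.05 CPM in the controls (log2 fold change -1.65, SE 1.04, adjusted p = 0.296). IL6 (ENSG00000136244; chr7:22725884-22732002, plus strand), the acute-phase cytokine, held 2.46, 0 and 0.431 CPM in overexpressing replicates 1, 2 and 3, against 2.66, 2.45 and 2.78 CPM in the controls (log2 fold change -1.44, SE 1.10, adjusted p = 0.392). Overexpressing replicate 1 lay just below every control for CXCL1, so that its groups did not overlap, and within the control range for IL6. In both genes replicates 2 and 3 were far below replicate 1. CXCL2, whose promoter window resembles that of CXCL1, held 2.302, 1.97 and 1.94 CPM in the overexpressing libraries and 1.98, 1.87 and 1.499 CPM in the controls, with no such split. CXCL6, a chemokine gene outside the members, was split as CXCL1 was. It held 1.12, 0.213 and 0.0784 CPM in overexpressing replicates 1, 2 and 3, against 1.25, 1.43 and 1.03 CPM in the controls. Without overexpressing replicate 1, the log2 fold change of CXCL1 was -4.63 (SE 0.41, adjusted p = 5.6e-04) and that of IL6 -3.63 (SE 0.96, adjusted p = 0.0360). With overexpressing replicate 1 alone, they differed from the controls by -0.20 (SE 0.26) and -0.10 (SE 0.27).

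LTA (ENSG00000226979; chr6:31572054-31574324, plus strand), lymphotoxin alpha, a ligand typical of lymphocytes, split the other way. It had 0, 54 and 86 counts in overexpressing replicates 1, 2 and 3, against 12, 10 and 0 counts in the controls (log2 fold change 2.73, SE 1.44, adjusted p = 0.216). A value of 0 allows up to 3 fragments, which at about 4 counts a fragment would be about 12 counts, so overexpressing replicate 1 cannot be told apart from the controls. Without overexpressing replicate 1 the log2 fold change was 3.32 (SE 0.90, adjusted p = 0.0385).

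Some markers of other cell types were split between libraries as these 3 genes were, and others on the same lists were not. The epithelial keratins KRT8 and KRT18 were lower in overexpressing replicates 2 and 3, as CXCL1 and IL6 were. KRT8 held 56.9, 14.3 and 11.3 CPM in overexpressing replicates 1, 2 and 3, against 55.6, 58.5 and 57.4 CPM in the controls, and KRT18 held 25.6, 4.7 and 5.33 CPM in the overexpressing libraries, against 28.3, 23.8 and 26.2 CPM in the controls. Over the whole list of 9 fibroblast and epithelial markers, of which 7 were tested, the summed level was 108, 40.6 and 28.1 CPM in overexpressing replicates 1, 2 and 3 and 106 to 119 CPM in the controls. KRT8 and KRT18 overlap on opposite strands by 525 exonic bases. Of the other epithelial genes, EPCAM held 1.21, 1.24 and 0.979 CPM in overexpressing replicates 1, 2 and 3, against 2.37, 3.03 and 1.68 CPM in the controls, and CDH1 held 1.23, 1.81 and 2.25 CPM in the overexpressing libraries, against 3.57, 3.37 and 1.68 CPM in the controls. EPCAM was alike in the 3 overexpressing libraries and CDH1 was lowest in replicate 1, so neither had the keratins' split. Among the collagens COL1A2 was lower in replicates 2 and 3, at 12.8, 4.89 and 2.997 CPM in the overexpressing libraries, against 10.5, 14.7 and 14.1 CPM in the controls, while COL1A1 ranged over 4.94 to 9.34 CPM in the overexpressing libraries and 5.23 to 15.1 CPM in the controls, and COL3A1, DCN and LUM were highest in replicate 2.

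Several B cell markers were high where LTA was high, but FCER2, at the highest level of the list, was not split in that way. FCER2 held 41.8, 41.4 and 47.3 CPM in overexpressing replicates 1, 2 and 3, against 20.97, 18.1 and 25.6 CPM in the controls. The surface protein CD20, encoded by MS4A1, held 0.9103, 22.4 and 22.7 CPM in overexpressing replicates 1, 2 and 3, against 2.59, 1.36 and 0.464 CPM in the controls, and the antigen receptor subunit CD79B held 0.4997, 12.9 and 14.4 CPM in the overexpressing libraries, against 0.714, 1.005 and 0.642 CPM in the controls. Over 13 B cell markers, of which 12 were tested, 6 rose and 0 fell, the summed level was 69.5, 160 and 164 CPM in overexpressing replicates 1, 2 and 3 and 39.1 to 46.2 CPM in the controls. No B cell marker was at 0 in all libraries, but some were close to it. CR2 had 4 counts in overexpressing replicate 2 and in control replicate 1 and 0 in the rest. BANK1 reached at most 0.621 CPM, in overexpressing replicate 2. Across all genes, 158 (0.811%) were at least 4 times lower in overexpressing replicates 2 and 3 than in every other library, CXCL1 and IL6 among them, and 72 (0.370%) were at least 4 times higher, LTA among them. The part of these cell type markers in the values of CXCL1, IL6 and LTA was not tested. For CCL5, TNF, IL1B, CXCL8, CXCL16 and IRAK2, overexpressing replicate 1 lay with replicates 2 and 3, above every control.

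**Figure D3:**
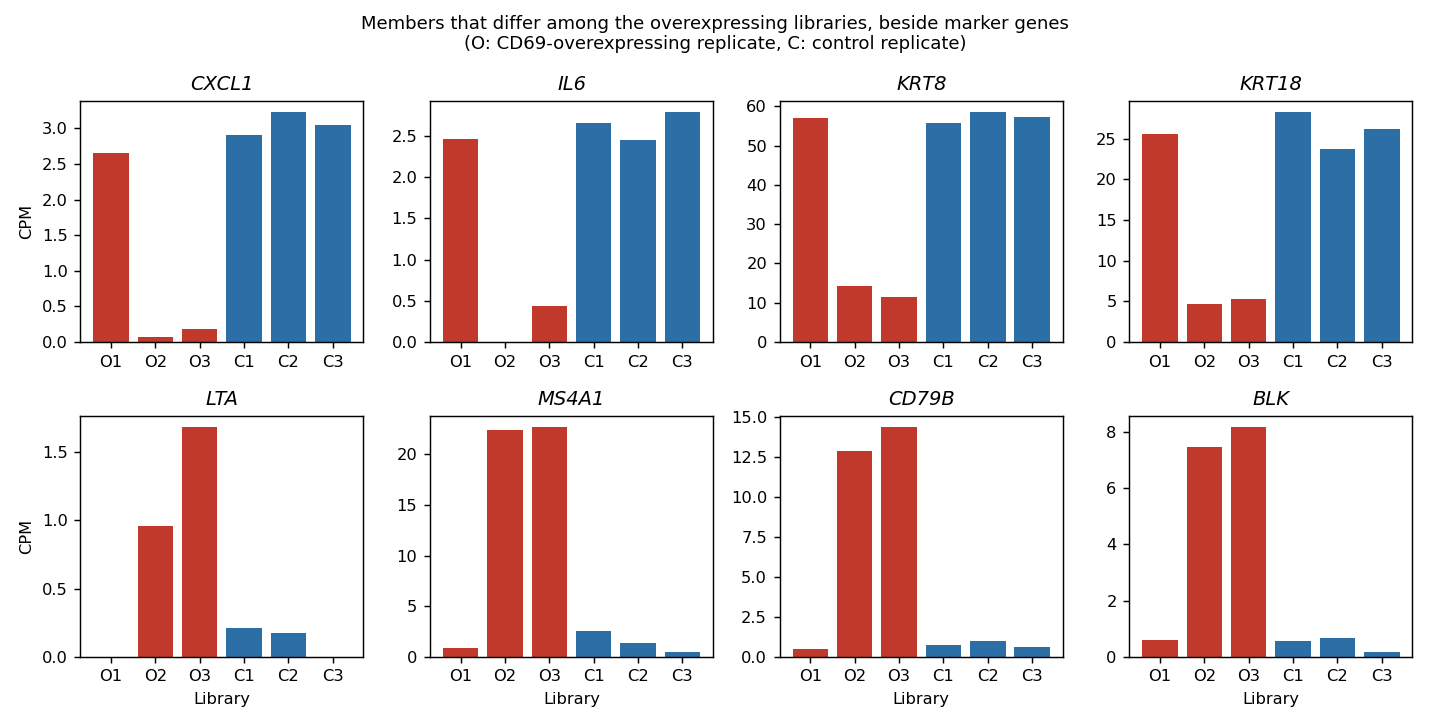
CPM of CXCL1, IL6 and LTA in each library beside 2 keratin and 3 B cell genes (bars, 1 per library, each panel on its own axis from 0). CXCL1 and IL6 are low in overexpressing replicates 2 and 3 with KRT8 and KRT18, and LTA is high there with MS4A1, CD79B and BLK.

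Beyond the 33 members, 166 other genes of the pathway were listed, of which 127 were tested, 19 rose and 15 fell (26.8%, beside 24.1% of all genes), with a median log2 fold change of -0.05. Single values with an SE are log2 fold changes of the overexpressing over the control libraries. The TNF receptor branch had 5 higher and 1 lower of 21. TNFRSF14, the receptor HVEM, which binds LTA and LIGHT, was at 40.6 ± 4.005 CPM in the overexpressing libraries and 15.8 ± 1.39 CPM in the controls (SD, n = 3 each; log2 fold change 1.36, SE 0.11, adjusted p = 1.4e-04). RBCK1, a subunit of the linear ubiquitin ligase, rose by 0.74 (SE 0.09), on chromosome 20, where the median of expressed coding genes was itself 0.40. RIPK1, the kinase at the TNF receptor, was lower (-0.43, SE 0.08). The receptors for TNF itself, TNFRSF1A and TNFRSF1B, did not pass the test, at 0.09 (SE 0.07) and 0.11 (SE 0.09).

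In the Toll-like and interleukin-1 receptor branch 4 genes rose and 3 fell of 26. The receptor chains for interleukin-18 moved apart. IL18R1, the binding chain, was at 19.6 ± 0.536 CPM in the overexpressing libraries and 10.6 ± 1.05 CPM in the controls (log2 fold change 0.89, SE 0.11, adjusted p = 0.00108), while IL18RAP, the signalling chain, was at 2.696 ± 0.508 CPM in the overexpressing libraries and 6.38 ± 0.473 CPM in the controls (SD, n = 3 each; log2 fold change -1.24, SE 0.19, adjusted p = 0.00317). TLR9, the sensor of unmethylated DNA, was lower at -1.43 (SE 0.20), though 86.3% of its exonic bases are shared with another gene on its strand. TLR10 held 0.0535, 1.79 and 1.35 CPM in overexpressing replicates 1, 2 and 3, against 0.196, 0 and 0.143 CPM in the controls, high where MS4A1 and CD79B were high.

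Of 13 genes of the IKK complex and upstream kinases, 2 rose and 2 fell. MAP3K14, which encodes NIK, the kinase of the slower branch, was at 7.08 ± 1.08 CPM in the overexpressing libraries and 12.4 ± 0.481 CPM in the controls (SD, n = 3 each; log2 fold change -0.80, SE 0.14, adjusted p = 0.00582). IKBKG, the regulatory subunit NEMO, and TAB3 rose by 0.56 (SE 0.11) and 0.55 (SE 0.15), and both lie on X, where the median of expressed coding genes was 0.49. IRAK1, also on X, rose by 0.28, less than that median. AZI2, an adaptor of the kinase TBK1, was lower at -0.47 (SE 0.08), with 55.4% of its exonic bases under CMC1 on the opposite strand. The catalytic kinases CHUK and IKBKB did not pass the test (-0.18 and -0.12, SE 0.11 and 0.08). Of 13 tested regulators of NF-kB other than the members, OTULIN rose by 0.28 and PDLIM2 fell, at -0.37, and of 9 genes of the CARD, BCL10 and MALT1 branch none passed the quasi-likelihood test at an adjusted p under 0.05. Of these 9, 2 had an unadjusted p under 0.05, and DESeq2 and limma-voom each called 0.

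Other target genes gave both directions, with 3 higher and 5 lower of 23 tested and a median of -0.29. BCL2A1, a survival gene of myeloid cells, was at 37.9 ± 3.33 CPM in the overexpressing libraries and 13.7 ± 1.32 CPM in the controls (SD, n = 3 each; log2 fold change 1.47, SE 0.11, adjusted p = 1.1e-04). TNFSF13B, the B cell survival factor BAFF, was lower at -0.88 (SE 0.09), and BCL2L1 at -0.61 (SE 0.06) with 43.0% of its exonic bases under ABALON on the opposite strand, on chromosome 20. Of 10 tested chemokine genes outside the members, CCL23 and CCL22 rose by 1.49 (SE 0.20) and 2.23 (SE 0.54) and CXCL5 fell. CCL22 was scarce, with 24, 47 and 22 counts in the overexpressing libraries and 8, 8 and 4 counts in the controls. CXCL5 held 0.446, 0 and 0.0784 CPM in the overexpressing libraries, against 6.62, 6.03 and 0.607 CPM in the controls, where replicate 3 was low (log2 fold change -4.63, SE 1.21, adjusted p = 0.0285). Among 12 tested inflammasome genes 2 rose and 2 fell. The sensors NLRP12 and NLRC4 were lower at -1.17 and -1.22 (SE 0.17 and 0.21), and PYCARD, the adaptor ASC, rose by 0.71 (SE 0.15) with 59.7% of its exonic bases under PYCARD-AS1. CASP1, which cleaves the IL1B and IL18 precursors, did not pass the test (log2 fold change -0.35, SE 0.12, adjusted p = 0.0698).

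**Figure D4:**
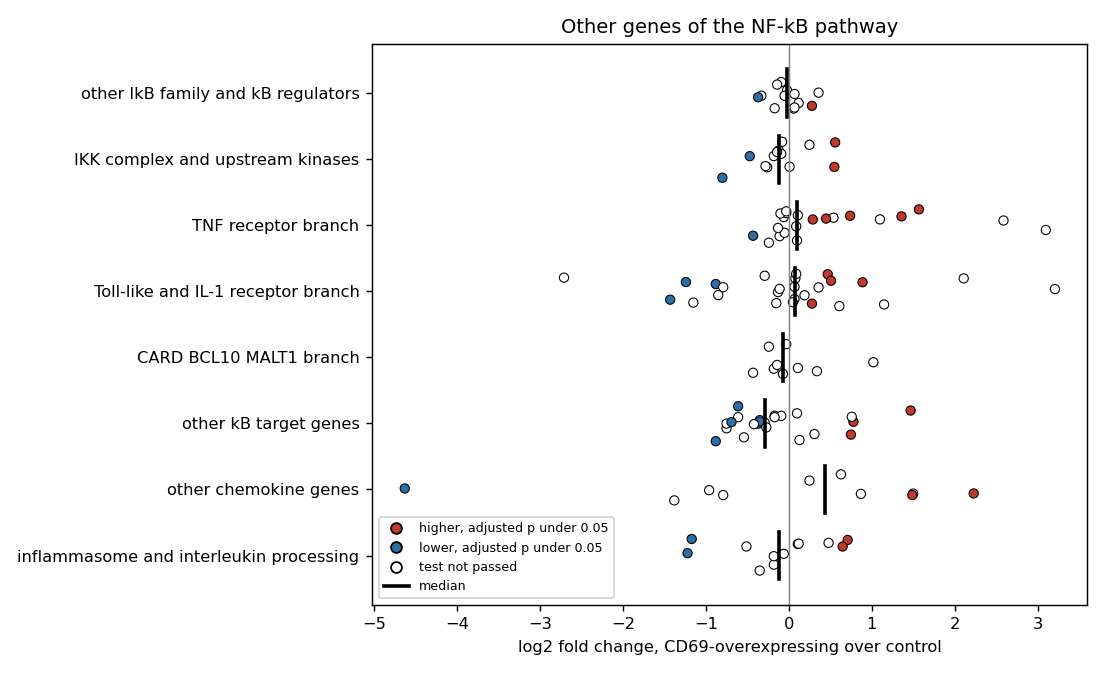
Log2 fold change of the overexpressing over the control libraries (x axis) for the 127 tested genes of 8 other lists of the pathway (y axis), 1 point per gene with a bar at each list's median. Called genes lie on both sides of 0 in 7 lists, and the CARD, BCL10 and MALT1 list has none.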

How the data were processed

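Per the labels' protocols, poly(A) transcripts went into stranded dUTP libraries that were read as 150-base pairs. The authors deposited estimated counts per gene and library. The submitters' processing notes name FastQC, fastp, STAR and featureCounts (Subread) with GRCh38 (hg38). Tool versions, the gene annotation, the use of strand and what was counted are not given in the sources used here. Values were whole numbers with an excess at 4 (1496 genes in control replicate 1, beside 777 at 3 and 505 at 5), so 1 fragment may stand for about 4 counts, and depth may be lower than the totals imply.

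Identifiers were paired with symbols for 61757 of 61806 genes. Positions, exon lengths and overlaps came from GENCODE release 29 on GRCh38. Genes were filtered with filterByExpr, scaled by TMM and tested with glmQLFTest (edgeR 4.0.16, R 4.3.3) as a two-sided test, and p was adjusted over 19485 genes by the Benjamini-Hochberg method. The SE is the log2 fold change divided by the square root of the F statistic. Libraries within a group differed by more than sampling noise (chi-square at least 2.36 for each degree of freedom, counts divided by 4). The test was also run on counts simulated from its own model with 200 genes changed. Those counts hold neither the excess at 4 nor the unlike overexpressing replicate 1, so that run does not check the calls made here. Alternatives were other scalings and filters, DESeq2 1.42.0, limma-voom (limma 3.58.1), glmTreat, a replicate block, counts divided by 4, and omitted libraries. The members were given by name, and they, the lists and the rule for named genes (every member, up to 3 called genes with the smallest p per pathway list, the highest genes per marker list, and CD69; others were named after their values were seen) were chosen with earlier results of these data known. SOD2 was not analysed here.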

Additional observations from a re-analysis of the deposited data

How the results depend on the processing

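Of the 12 called members, none changed sign in 17 alternatives, 4 kept their call in each, 5 lost it only with overexpressing replicate 1 alone, and 3 (NFKB2, RELB and CCL3) lost it in others too. Against a fold of 1.2, 1723 genes rose and 874 fell, 2 members fell (1 component), and of the other pathway genes 11 rose and 9 fell. With overexpressing replicate 1 alone, 797 genes rose and 380 fell, 4 members rose (1 component and 3 secreted products) and 0 members fell (0 components and 0 secreted products), and of the other pathway genes 5 rose and 5 fell. limma-voom called 2 secreted products lower. Omitting 1 library at a time gave 1783 to 2917 genes higher and 1137 to 2226 lower, with 7 to 9 members higher and 2 to 5 lower. It gave 1 to 4 components and 1 to 3 secreted products lower, and 10 to 19 higher and 9 to 20 lower other pathway genes. The sign changed for 4 members that were not called: NFKBIE without control replicate 3 (0.0021; -0.22 to 0.0021 over the omissions), CD83 without overexpressing replicate 3 (-0.03; -0.03 to 0.16) and with overexpressing replicate 1 alone (-0.12), LTB without control replicate 1 (-0.0031; -0.0031 to 0.24) and LTA with overexpressing replicate 1 alone (-5.89, fitted to a count of 0 and no bound). The cause of these shifts was not tested. LTA had a value in 15 of the alternatives. The replicate block gave 3194 genes higher and 2669 lower, with 8 members higher and 5 lower, NFKBIA being the added call, and 20 and 20 other pathway genes. Over all genes, deviations of same-numbered libraries were at most weakly correlated (r = -0.0331, 0.052 and 0.0714 for replicates 1, 2 and 3). The numbers were therefore not taken as pairs. Replicate 3 was the least alike in each group. Its chi-square for each degree of freedom was 12.9 and 14.1, beside 2.36, in the controls. In the overexpressing libraries it was 8.13 and 9.02, beside 4.49. NFKBIE was highest and REL lowest in replicate 3 of both groups, while CXCL8 was highest in overexpressing and lowest in control replicate 3. A shared effect of replicate was not tested. Low counts limit LTA, CCL3, CXCL1, IL6 and PTGS2 and, outside the members, CCL22.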
